A study of Mus musculus with 62 samples.

Results

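The collagen chain genes are the rows of the deposited expression table whose symbol is Col, a number, the letter a and a number, such as Col1a1. This rule found 44 genes among 47643 gene symbols. It reads symbols alone, but collagen genes were taken as the subject with earlier results of these data known. Of the 44, 11 encode fibrillar chains, 6 type IV chains, 6 type VI chains and 9 FACIT chains (fibril-associated collagens with interrupted triple helices). The other 12 belong to smaller classes. White adipose tissue of female mice aged 2 months was sequenced at 2, 4, 6 and 8 weeks after an injection. One arm received melanoma cells that cause cachexia (CAC), the wasting of fat and muscle seen in cancer, another received melanoma cells that do not (NCAC), and the last was mock injected. The 62 libraries form 12 groups of 5, except for 7 in the CAC arm at week 8. The series record names NCI Ath/nude mice, an athymic host that lacks mature T cells, whereas the strain label of the samples reads C57BL6/J, and which of these is right is not known. The labels name no other allele or agent, the treatment tag names the cachectic cells for every sample, and the arm was therefore taken from the sample descriptions. The labels call the replicates biological without saying that each came from its own mouse. The p-values thus set differences against the spread between these samples, which may not be the spread between mice.

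Collagens are the main structural proteins of the extracellular matrix. Their alpha chains wind into a triple helix that needs a glycine at the start of each Gly-X-Y triplet, so their genes carry long runs of glycine codons. In fat, stromal fibroblast-like cells make the fibrils of types I, III and V, type IV builds the basement membrane around adipocytes and vessels, and type VI forms beaded microfibrils next to it.

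The fibrillar class differs from the other classes in how long the glycine repeat runs, and the coding sequence shows it. The first 24 codons of the longest repeat are printed for the most abundant chain of each class, from the GENCODE M21 annotation of GRCm38, 5′ to 3′ on the coding strand, with the glycine codons (GGN) that start each triplet in capitals. Col3a1 encodes the chain of type III collagen, Col4a1 a main basement membrane chain, Col6a1 a type VI chain, Col14a1 a chain that sits on fibril surfaces, and Col15a1 a chain of the zone between basement membrane and fibrils.
Col3a1: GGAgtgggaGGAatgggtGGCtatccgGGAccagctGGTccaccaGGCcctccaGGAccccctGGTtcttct
Col4a1: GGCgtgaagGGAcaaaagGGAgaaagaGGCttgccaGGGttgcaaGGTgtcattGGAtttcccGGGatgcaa
Col6a1: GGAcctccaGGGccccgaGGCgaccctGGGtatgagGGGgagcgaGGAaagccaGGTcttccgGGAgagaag
Col14a1: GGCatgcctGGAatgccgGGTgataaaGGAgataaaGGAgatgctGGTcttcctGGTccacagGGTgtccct
Col15a1: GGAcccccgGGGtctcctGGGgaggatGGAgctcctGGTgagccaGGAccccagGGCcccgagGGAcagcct
In Col3a1 this repeat went on for 344 triplets without a break, in Col6a1 for 87, in Col4a1 for 40, in Col14a1 for 32 and in Col15a1 for 30. The end of the longest repeat of Col4a1 (coding bases 451 to 522, counted from the first base of the start codon) shows what an interruption looks like, where the next triplets no longer start with a glycine codon.
Col4a1 interruption: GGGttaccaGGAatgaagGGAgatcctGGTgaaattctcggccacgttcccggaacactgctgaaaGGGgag
The 11 fibrillar genes had a longest run of 216 to 344 triplets (median 338), against 39 to 66 in the 6 type IV genes. Type IV genes held 22 to 27 separate runs of 5 triplets or more each, so 74.7% to 78.6% of their codons still lay inside such runs. Type VI genes placed 11.7% to 31.9% of their codons there. Longest runs spanned 37 to 87 triplets in type VI genes, 32 to 113 in FACIT genes and 23 to 75 in the smaller classes. The fibrillar range lay above all of these and above type IV, while the non-fibrillar ranges overlapped each other.

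**Figure D1:**
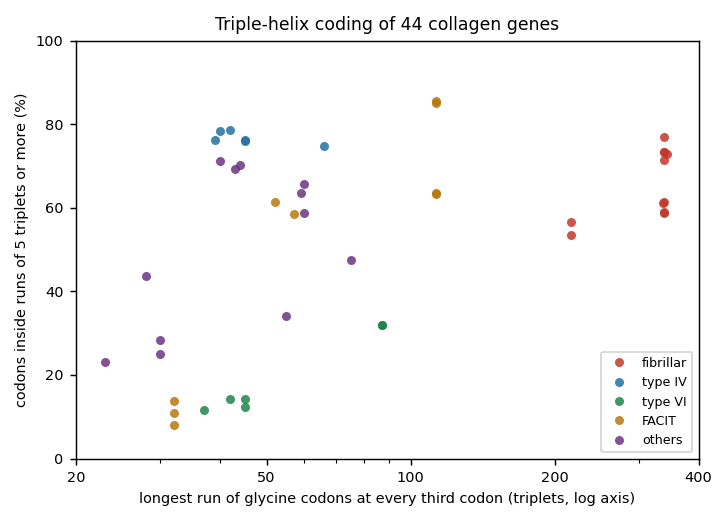
Each point is 1 of the 44 collagen genes, placed by the longest run of glycine codons that start a triplet (x, triplets, log axis) and by the share of its codons inside runs of 5 triplets or more (y, percent), and coloured by class. The fibrillar genes stand at 216 triplets or more, and the type IV genes at 39 to 66 triplets with 74.7% to 78.6% of codons inside runs.

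Several chains that assemble together are neighbours in the genome, and Col4a1 and Col4a2 start beside each other. On GRCm38 their annotated genes lie head to head on chromosome 8 and overlap by 22 bases, Col4a1 on the minus strand (11198423 to 11312826) and Col4a2 on the plus strand (11312805 to 11449287). The RefSeq promoter windows (GRCm38.p6, 250 bases before the start and 50 from it on) are chr8:11312777-11313076 for Col4a1 and chr8:11312555-11312854 for Col4a2, each printed on its own gene's strand. Capitals mark the 78 bases that both windows hold, read in opposite directions.
Col4a1 promoter: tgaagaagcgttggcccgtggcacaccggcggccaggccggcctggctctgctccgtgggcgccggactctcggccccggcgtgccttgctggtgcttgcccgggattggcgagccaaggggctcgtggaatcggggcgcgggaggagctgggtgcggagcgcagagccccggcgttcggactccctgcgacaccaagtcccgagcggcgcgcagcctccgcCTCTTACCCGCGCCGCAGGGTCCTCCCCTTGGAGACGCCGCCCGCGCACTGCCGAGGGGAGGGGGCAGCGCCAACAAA
Col4a2 promoter: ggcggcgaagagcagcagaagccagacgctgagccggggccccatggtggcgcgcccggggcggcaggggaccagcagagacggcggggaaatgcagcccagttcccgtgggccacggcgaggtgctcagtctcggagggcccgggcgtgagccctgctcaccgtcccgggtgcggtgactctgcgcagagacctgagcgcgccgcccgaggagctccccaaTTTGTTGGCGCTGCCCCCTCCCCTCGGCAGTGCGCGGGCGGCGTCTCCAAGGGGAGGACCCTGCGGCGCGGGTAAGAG
Of the other pairs, Col4a3 and Col4a4 lay 71 bases apart on chromosome 1, and Col4a5 and Col4a6 lay 1308 bases apart on chromosome X. Col6a1 and Col6a2 lay 85161 bases apart on chromosome 10. On chromosome 9 Col6a4 and Col6a5 lay 28810 bases apart, and Col6a5 and Col6a6 27917 bases apart. Col3a1 and Col5a2, chains of different types, were also neighbours, 24614 bases apart on chromosome 1. Of these pairs only Col4a1 and Col4a2 overlap, by the 22 bases given, and the labels name stranded libraries. The counting tool and its strand setting are not given, so how reads in those bases were assigned is not known.

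All values are TPM, a level corrected for transcript length and scaled so that a library totals 1000000, which hides how deeply it was sequenced. Between 11783 and 14470 genes reached 1 TPM in a library, and mitochondrially encoded genes held 17.2% to 44.4% of it. The 6 adipocyte markers, among them Adipoq and Plin1, summed to between 16397 and 51383 TPM in the 62 libraries, so the defining genes of fat were present in every group. Some libraries stood apart by transcripts of the bladder lining. The sum of 5 urothelial genes passed 100 TPM in 11 of 22 CAC, 2 of 20 NCAC and 3 of 20 mock libraries, and counts without these 16 are given beside the main ones. No pair of libraries was identical. In bulk tissue, fewer cells of a type and less RNA per cell cannot be told apart.

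Of the 44 collagen genes, 16 averaged at least 10 TPM over the 62 libraries, 16 lay between 0.5 and 10 TPM, and 12 lay under 0.5 TPM and were not tested. The 12 are Col2a1, Col11a1, Col24a1, Col9a1, Col9a2, Col9a3, Col19a1, Col22a1, Col10a1, Col13a1, Col25a1 and Col26a1, which include chains best known from cartilage (types II, IX and X and the type XI chain Col11a1). The gene just under the line was Col13a1 at 0.469 TPM and the one just above it Col4a3 at 0.504 TPM. The type III chain Col3a1 had the highest mean level at 350.4 TPM, followed by Col6a1 at 251 TPM and Col4a1 at 242 TPM. Col1a1 and Col1a2, the chains of type I collagen, averaged 173 and 131 TPM, Col4a2 averaged 173 TPM, Col15a1 123 TPM and Col6a2 116 TPM. The remaining 8 genes over 10 TPM were Col6a3 (71.8 TPM), Col5a1 (51.0 TPM), Col18a1 (40.4 TPM), Col5a2 (39.7 TPM), Col5a3 (29.9 TPM), Col14a1 (22.8 TPM), Col16a1 (20.2 TPM) and Col6a4 (14.3 TPM). All 44 genes together made up 0.0504% to 1.03% of a library, with a median of 0.146%.

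In CAC tissue at week 8 the 6 fibrillar genes over 10 TPM, the type VI genes Col6a1, Col6a2 and Col6a3, and Col15a1 were several-fold lower than in mock tissue. No type IV chain passed in the main fit. Of 32 collagen genes tested, limma on log2(TPM + 1) called 12 lower and 0 higher at an adjusted p under 0.05. Over all 14577 genes tested, 3.07% were called, 1.99% lower and 1.08% higher. The median log2 change of the 32 genes was -0.90, against -0.08 over all genes. The 12 are 6 of 8 fibrillar, 3 of 6 type VI, 1 of 4 FACIT and 2 of 8 other genes, and 0 of 6 type IV genes. An unadjusted p under 0.05 was found for 5 of the 6 type IV genes and 23 of the 32 collagen genes. Over all 14577 genes it was found for 2999. The balance over all genes depended on the fit, with 158 called higher and 290 lower here, 248 higher and 1824 lower without mitochondrial genes, and 536 higher and 450 lower in 1 fit of all libraries, while every collagen call was lower in each of these fits.

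Among the fibrillar genes, Col3a1 (chromosome 1, 45311538 to 45349706 on GRCm38) had 35.5 TPM in the lowest, 63.0 TPM in the middle and 200 TPM in the highest of the 7 CAC libraries, against 339.8 TPM, 1874 TPM, 309.6 TPM, 376 TPM and 644 TPM in the 5 mock libraries. Every CAC library lay below every mock library, and mock replicate 2 lay far above the other mock libraries. In the limma fit Col3a1 fell by 2.81 (log2; SE 0.49, adjusted p = 0.0143). Col5a2, a type V chain that helps set fibril diameter, had 10.8 TPM, 16.8 TPM and 22.7 TPM as the lowest, middle and highest CAC values, against 49.96, 183, 37.0, 48.7 and 66.4 TPM in mock tissue. These groups did not overlap either, and Col5a2 had the smallest adjusted p of any collagen gene at this week (log2 change -1.96, SE 0.33, limma adjusted p = 0.0125). Both type I chains fell, with log2 changes of -3.15 for Col1a1 (SE 0.62, adjusted p = 0.0210) and -2.63 for Col1a2 (SE 0.54, adjusted p = 0.0246). The other type V chains had log2 changes of -2.33 for Col5a1 (SE 0.40, adjusted p = 0.0137) and -2.19 for Col5a3 (SE 0.38, adjusted p = 0.0130), and both fell. The 2 fibrillar genes that did not pass were both under 10 TPM.

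The type VI chains Col6a1, Col6a2 and Col6a3, which assemble with each other, fell as well. Col6a5 and Col6a6, both under 10 TPM, were not called, and Col6a5 ran the other way with 12.8 ± 5.88 TPM in CAC against 8.10 ± 7.85 TPM in mock tissue (log2 change 0.79, SE 0.41, limma adjusted p = 0.309). Col6a1 (chromosome 10, 76708792 to 76726168) had 31.3, 86.0 and 113 TPM as the lowest, middle and highest CAC values, against 282, 1818, 222, 187 and 553 TPM in mock tissue, and fell by 2.61 (SE 0.53, adjusted p = 0.0241). Col6a3, whose chain gives rise to the adipose fragment endotrophin, had 4.55, 15.6 and 38.2 TPM in CAC tissue, against 57.1, 641, 127, 49.7 and 213 TPM in mock tissue. The groups did not overlap for either gene, and Col6a3 showed the largest fall of all collagen genes at week 8, by 3.18 (SE 0.60, adjusted p = 0.0183). Col6a2 fell by 2.97 (SE 0.56, adjusted p = 0.0183).
Col6a4, an alternative type VI chain, behaved differently among libraries. It had 1.52, 244, 3.55, 1.85 and 40.4 TPM in mock replicates 1 to 5 at week 8, and at most 11.2 TPM with a median of 0.571 TPM in CAC tissue. Its log2 change of -2.596 had an SE of 1.04 and did not pass (adjusted p = 0.175). The sum of 6 mural markers (smooth muscle and pericyte genes such as Acta2 and Myh11) in those mock libraries was 769.7, 12570.0, 3134, 1447 and 4620.0 TPM, so the libraries highest in Col6a4 were also highest in these markers. Their part in the Col6a4 values was not tested.

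No gene of basement membrane type IV passed in the main fit. Col4a1 had 143, 183 and 288 TPM as the lowest, middle and highest CAC values at week 8, against 363, 535, 207, 246 and 239 TPM in mock tissue. The groups overlapped, and its log2 change of -0.69 (SE 0.24) did not pass (limma adjusted p = 0.125). Its partner Col4a2 gave -0.64 (SE 0.24, adjusted p = 0.159). Col4a5, a chain of specialised basement membranes with the smallest adjusted p of the class, had 1.87, 2.43 and 7.79 TPM in CAC tissue against 3.28, 34.6, 6.68, 10.6 and 10.4 TPM in mock tissue, with overlap (log2 change -1.42, SE 0.44, adjusted p = 0.0943). All 6 type IV genes had a negative log2 change between -1.42 and -0.61, with a median of -0.71. Of 20 alternative fits of this comparison, Col4a1 and Col4a2 were each called lower in 1. Over all weeks they were called lower in 2 and 1 of 12 alternative fits.

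In the FACIT class Col14a1 had 5.52, 8.74 and 11.8 TPM in CAC tissue, against 12.8, 80.5, 14.1, 31.2 and 33.8 TPM in mock tissue. The groups did not overlap, though only by a small margin, and Col14a1 fell by 1.61 (SE 0.37, adjusted p = 0.0368). Col16a1 had a log2 change of -1.602 with a wider error (SE 0.56, adjusted p = 0.126) and is not called. Among the others, Col15a1 (chromosome 4, 47208161 to 47313167) had 7.06, 19.4 and 103 TPM in CAC tissue against 240, 301, 111, 128 and 98.9 TPM in mock tissue. A single CAC library, replicate 3 at 103 TPM, overlapped the mock range, and Col15a1 fell by 2.71 (SE 0.52, adjusted p = 0.0189). Col18a1, its relative that carries the endostatin fragment, changed by -0.89 (SE 0.24, adjusted p = 0.0660) and is not called. Col8a2, a short-chain collagen, fell by 1.44 (SE 0.29, adjusted p = 0.0241), averaging 1.01 ± 0.405 TPM in CAC libraries and 4.99 ± 3.40 TPM in mock tissue (SD, n = 7 and 5).

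**Figure D2:**
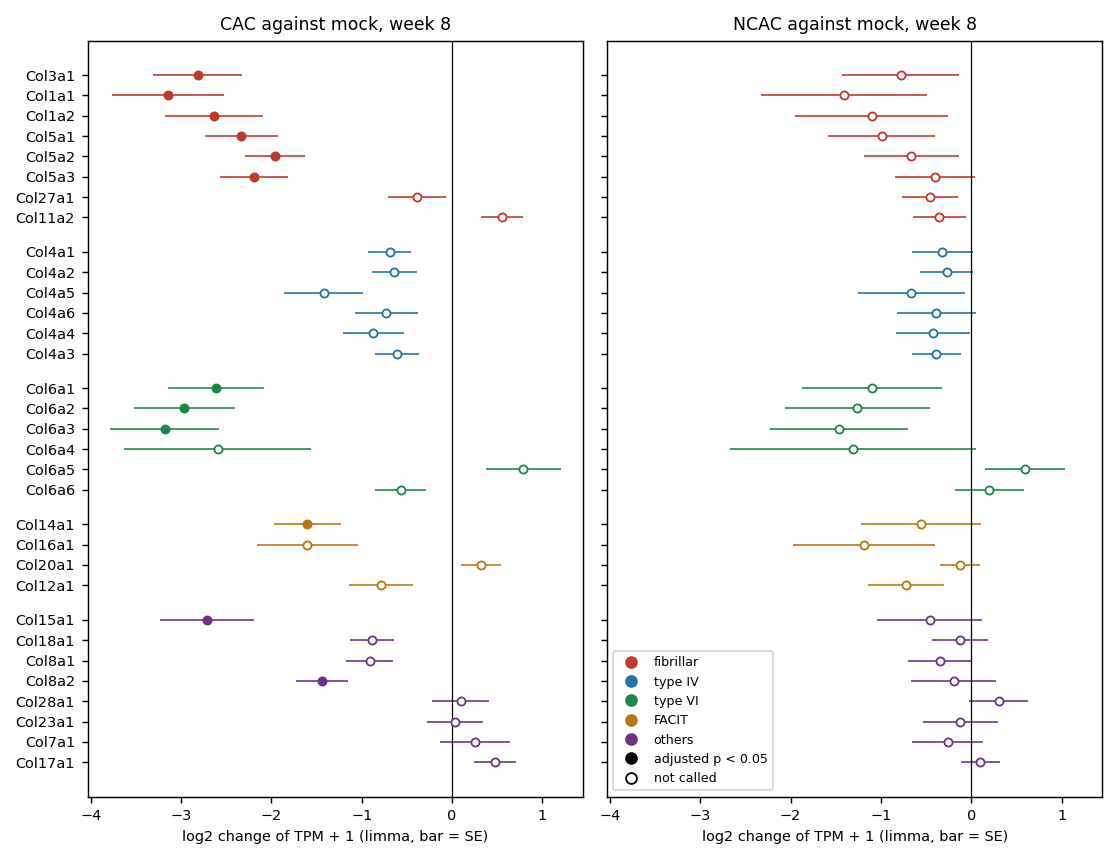
Log2 change of TPM + 1 for the 32 tested collagen genes at week 8, CAC against mock on the left and NCAC against mock on the right on the same scale, with limma standard errors as bars and filled points where the adjusted p is under 0.05. The 12 filled points on the left lie between -3.18 and -1.44, the type IV points lie between -1.42 and -0.61 with none filled, and the right panel has 0 filled points.

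At week 8 the CAC and mock values did not overlap, with CAC lower, for 12 of the 32 genes, against 2.22% of all genes tested. These are the called genes with Col8a1, a partner of Col8a2, in place of Col15a1. The mock libraries spread more widely than the CAC libraries, and mock replicate 2 had a summed collagen level of 10268 TPM and the other 4 mock libraries 1735 to 3385 TPM. Without mock replicate 2 the count of called collagen genes was 11, among 209 genes called in all. Without any 1 library the adjusted p stayed at or under 0.0495 for Col3a1, Col5a1, Col5a2, Col5a3, Col6a2, Col6a3 and Col15a1. It passed 0.05 for Col1a1 without CAC replicate 7 or mock replicate 5 (at most 0.0525), and for Col1a2 and Col6a1 without CAC replicate 6, CAC replicate 7 or mock replicate 5 (at most 0.0604 and 0.0573). It did so for Col8a2 without CAC replicate 4, CAC replicate 7 or mock replicate 4 (at most 0.0550), and for Col14a1 in 9 of 12 cases (at most 0.0843). The lowest count, 7, came without CAC replicate 7, where 131 genes were called in all. With replicate number as a block, 0 collagen genes and 30 genes in all were called. That fit left out CAC replicates 6 and 7, whose numbers mock tissue lacks. With the libraries of high urothelial transcripts left out (3 of 7 CAC and 1 of 5 mock), 0 collagen genes and 2 genes in all were called, while the median log2 change of the 32 genes was -0.93, that of Col3a1 was -2.59, that of Col6a3 -2.64 and that of Col4a1 -0.63.

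At the earlier weeks the differences were smaller and no collagen gene passed. The median log2 change of the 8 fibrillar genes, CAC against mock, was -0.02 at week 2, -0.98 at week 4, -1.20 at week 6 and -2.26 at week 8. For the 6 type VI genes it was 0.18, -0.85, -1.22 and -2.603, and for the 6 type IV genes 0.19, -0.35, -0.31 and -0.71. At weeks 6 and 8 the median fibrillar sum was 155 and 170 TPM in CAC, and 587 and 746 TPM in mock tissue. The median type VI sum was 120 and 165 TPM in CAC, and 285 and 477 TPM in mock tissue. Neither sum was thus lower in CAC tissue at week 8 than at week 6, and both were higher in mock tissue. Within weeks 2, 4 and 6 limma called 0 of 32 collagen genes, against 0.00686%, 0.00686% and 0.357% of all genes (0.309% higher and 0.0480% lower at week 6). An unadjusted p under 0.05 was found for 1, 6 and 11 of the 32. Over all genes tested it was found for 503 of 14572, 405 of 14576 and 1377 of 14571. The 1 of 32 at week 2 is thus no more than the share over all genes. With limma's library weights 2 were called at week 2, 0 at week 4 and 16 at week 6 (1 higher and 15 lower), where 670, 1 and 2758 genes were called in all (1713 higher and 1045 lower at week 6). With the urothelial libraries left out the count stayed 0 at weeks 2, 4 and 6. The difference between the CAC effect at week 8 and that at week 2 was tested itself and called 0 of 32 genes (0.0549% of all genes, 0.0343% higher and 0.0206% lower). In that fit 12 of the 32 had an unadjusted p under 0.05, against 1362 of all 14577 genes. Col3a1 had the smallest adjusted p there, with a difference of -2.65 (SE 0.82, adjusted p = 0.380). With library weights 9 were called, where 777 genes were called in all. In mock tissue week 8 against week 2 gave 0 calls (0% of all genes) and a median log2 change of 0.53 over the 32 genes. An unadjusted p under 0.05 was found there for 0 of the 32, against 564 of all 14576 genes.

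**Figure D3:**
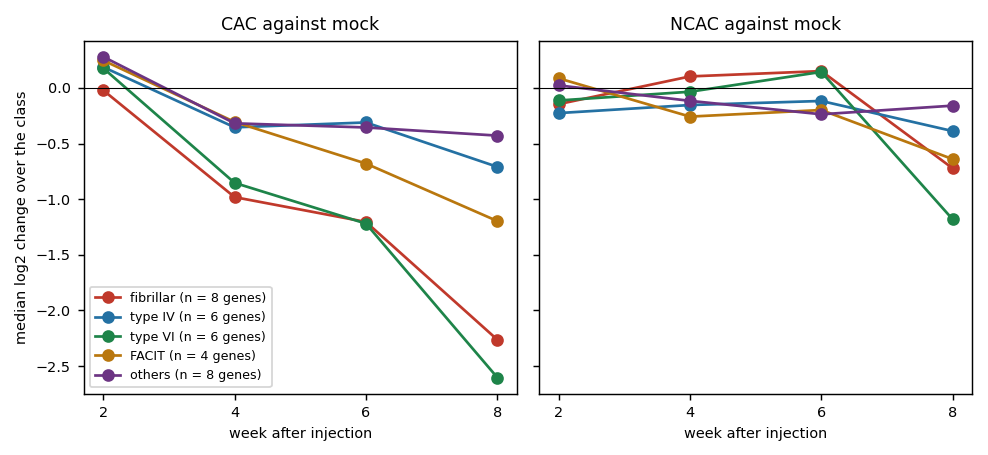
Median log2 change over the tested genes of each class at weeks 2, 4, 6 and 8, CAC against mock on the left and NCAC against mock on the right. In CAC tissue the fibrillar line reaches -2.26 and the type VI line -2.603 at week 8 while the type IV line reaches -0.71. The mock libraries they are set against had a median fibrillar sum of 587 TPM at week 6 and 746 TPM at week 8.

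**Figure D4:**
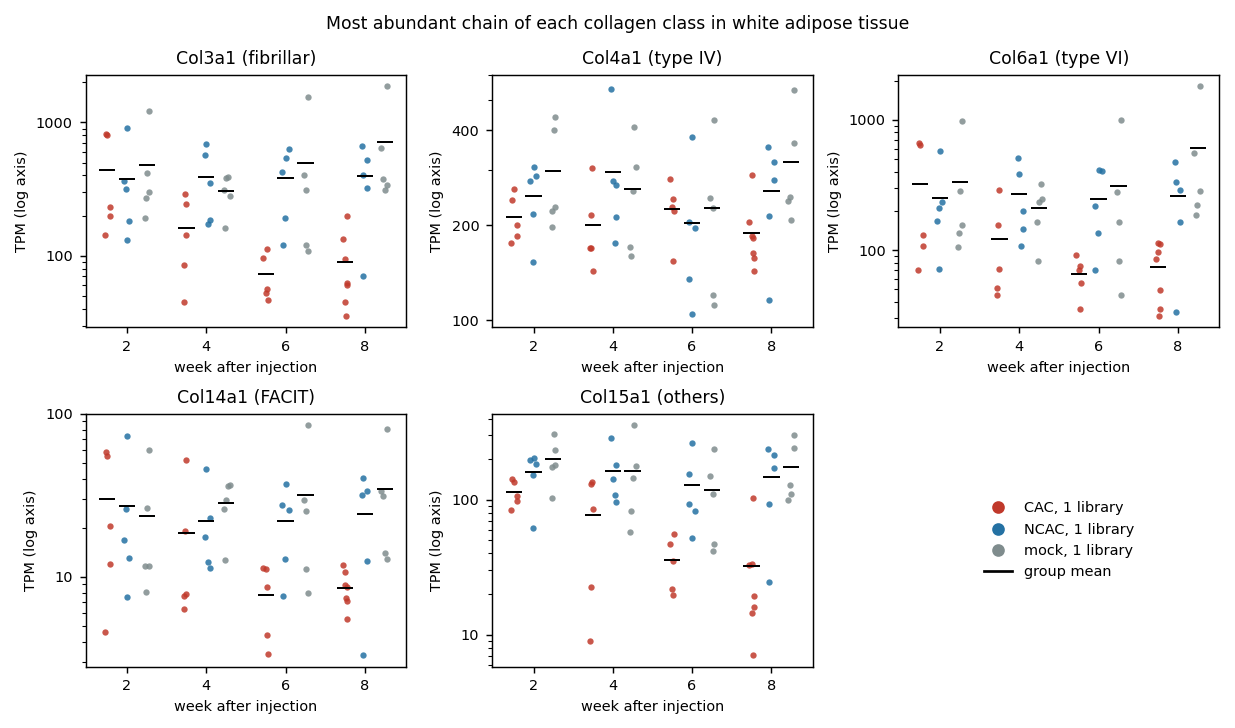
TPM of the most abundant chain of each class (log axis) by week, with 1 point per library in CAC, NCAC and mock tissue and a bar for the group mean. Col3a1 stands at 46.2 to 112 TPM in the CAC libraries of week 6, below every NCAC library of that week, while Col4a1 overlaps among the arms at every week.

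At week 2 Col3a1 had 804, 198, 144, 234 and 824 TPM in CAC tissue, against 1208, 419.8, 272, 299 and 192 TPM in mock tissue. At week 4 it had 144, 44.8, 243, 85.4 and 288 TPM in CAC tissue, against 390.1, 386, 161, 313 and 281 TPM in mock tissue. The groups overlapped widely at both weeks, with 3 of the 5 CAC libraries below every mock library at week 4. At week 6 Col3a1 had 52.5, 96.9, 112, 46.2 and 56.5 TPM in CAC tissue, against 312, 108, 119, 399.98 and 1561 TPM in mock tissue. The groups overlapped only where the highest CAC library met the lowest mock library. Col4a1 at the same week had 229, 280, 243, 221 and 154 TPM in CAC tissue, against 227, 112, 120, 244 and 432 TPM in mock tissue. Here the CAC values lay inside the mock range, and the log2 change was 0.14 (SE 0.34, limma adjusted p = 0.972), against -2.13 (SE 0.63, adjusted p = 0.255) for Col3a1. For the 32 genes at week 6, 0 had CAC values wholly below mock values, against 0.816% of all genes.

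Type IV chains made up a larger share of the collagen transcripts in CAC tissue at the later weeks. At week 6 the type IV chains made up 50.8% ± 3.48 of all collagen TPM in CAC tissue, 20.9% ± 7.40 in NCAC tissue and 24.8% ± 8.94 in mock tissue (SD, n = 5 each). The lowest CAC library had 46.4%, and the highest NCAC and mock libraries had 31.9% and 33.9%, so CAC did not overlap either group. Summed type IV levels were close, at 397 ± 76.5 TPM in CAC, 357 ± 182 TPM in NCAC and 399.8 ± 223 TPM in mock tissue. Summed fibrillar levels were 176 ± 59.0 TPM in CAC, 859.8 ± 569 TPM in NCAC and 1081 ± 1425 TPM in mock tissue. At week 8 the type IV share was 44.3% ± 8.72 in CAC (n = 7), 26.5% ± 10.8 in NCAC and 19.2% ± 8.29 in mock tissue (n = 5 each), and the lowest CAC library at 29.7% lay just above the highest mock library at 28.8%. NCAC replicate 3 at 44.3% lay inside the CAC range, and the other 4 NCAC libraries lay below it at 18.4% to 28.6%. Shares of a sum move together, so they are given as a description.

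The log2 ratio of Col3a1 to Col4a1 within a library sets a fibril chain against a basement membrane chain without reference to the rest of the library. This test was chosen after the values were seen, and p-values from the two-sided exact permutation test were adjusted over 12 comparisons. At week 6 the ratio averaged -1.68 ± 0.47 in CAC and 0.59 ± 0.77 in mock tissue (SD, n = 5 each), a difference of -2.27 with no overlap. Its p of 0.00794 is the smallest that an exact permutation of 5 against 5 libraries can give (adjusted p = 0.0265). At week 8 it averaged -1.26 ± 0.80 in CAC (n = 7) and 0.87 ± 0.75 in mock tissue (n = 5), a difference of -2.12 with overlap (exact permutation p = 0.00379, adjusted p = 0.0265). At weeks 2 and 4 the differences were 0.26 and -0.81 (exact permutation p = 0.698 and 0.103). CAC against NCAC gave -2.47 at week 6 and -1.66 at week 8 (exact permutation p = 0.00794 and 0.00884, adjusted p = 0.0265 for both), and the 4 comparisons of NCAC with mock tissue ranged in exact permutation p over 0.333 to 0.905. With the urothelial libraries left out the week 8 difference from mock tissue was -1.96 (exact permutation p = 0.0571, 4 libraries left in each group). The 12 comparisons share libraries, so their p-values are not independent of each other.

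**Figure D5:**
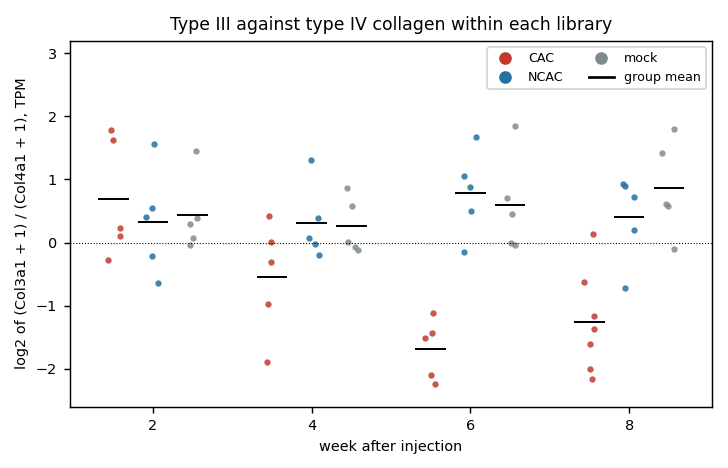
Log2 ratio of Col3a1 + 1 to Col4a1 + 1 (TPM) in each library by week, with CAC, NCAC and mock side by side and a bar for the group mean. The 5 CAC libraries of week 6 lie between -2.24 and -1.11, below every NCAC and mock library of that week.

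Against NCAC tissue, CAC tissue had 4 collagen genes lower at week 6, from the fibrillar, type VI and smaller classes. Limma called 4 of 32 genes lower and 0 higher, where 5.78% of all genes were called, 0.844% lower and 4.94% higher. They are Col3a1 (log2 change -2.21, SE 0.46, adjusted p = 0.0251), Col6a2 (-2.16, SE 0.48, adjusted p = 0.0331), Col15a1 (-1.71, SE 0.43, adjusted p = 0.0459) and Col5a3 (-1.40, SE 0.35, adjusted p = 0.0429). In 4 genes every CAC value lay below every NCAC value, against 1.14% of all genes, and these were Col3a1, Col5a3, Col6a2 and the type IV chain Col4a4, named after its values were seen. Col3a1 had 628, 427, 540, 192 and 121 TPM in NCAC tissue, and its highest CAC value was 112 TPM. Col6a2 had 21.8, 28.2, 28.2, 20.4 and 13.8 TPM in CAC tissue, against 213, 113, 207, 67.3 and 30.8 TPM in NCAC tissue, with no overlap. The main fit called 843 genes in all. The collagen count was 0 without CAC replicate 1, 4 or 5 (305, 360 and 580 genes in all) or NCAC replicate 1 or 2 (400 and 210). It was 1 without CAC replicate 2 (404 in all), 2 without NCAC replicate 4 (286) and 10 without NCAC replicate 5 (760). With the 3 urothelial CAC libraries left out it was 0 (62 genes in all). In the same comparison 1 of 10 stromal markers was called lower (Fbn1, list median -0.97), and 2 of 6 endothelial and 1 of 6 mural markers were called higher. Of the 5 urothelial markers 3 were called higher in CAC at week 6, and their sum ranged over 5.46 to 502 TPM in CAC and 6.77 to 36 TPM in NCAC tissue, where Upk2 was listed at 0 in all 5 libraries. The part of these markers in the collagen result was not tested. The median log2 change of all genes at that week was 0.13, and median-ratio rescaling, which took it to -0.01, gave 12 called collagen genes, all lower, among 996 called genes in all.

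At week 8 CAC against NCAC gave 0 of 32 calls (0.528% of all genes), with the smallest adjusted p at 0.0598 for Col5a3 (log2 change -1.79, SE 0.38). An unadjusted p under 0.05 was found for 16 of the 32, against 2342 of all 14577 genes. Col3a1 had 401, 524, 70.2, 670 and 320 TPM in NCAC tissue, and replicate 3 lay inside the CAC range. Without that library 16 of 32 collagen genes and 1253 genes in all were called, without CAC replicate 3 the counts were 3 and 405, and with library weights 23 and 3061. With the urothelial libraries left out 0 collagen genes and 1 gene in all were called. No gene had CAC values wholly below NCAC values at this week (0.556% of all genes). At weeks 2 and 4 the count was 0 (0% of all genes), with 0 and 6 of the 32 at an unadjusted p under 0.05. Over all genes, 528 of 14572 and 648 of 14576 had such a p.

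With all weeks in 1 fit and week as a term, CAC against mock called 13 of 32 genes lower and 0 higher, where 10% of all genes were called, 5.79% lower and 4.21% higher. These are the 12 genes of week 8 and Col8a1 (log2 change -0.58, SE 0.18, adjusted p = 0.0312). The mean effects over the weeks were smaller than at week 8, such as -1.61 for Col3a1 and -1.63 for Col15a1 (SE 0.33 and 0.31). The count depended on the last week, with 0 genes called with week 8 left out, and 6 with week 6 left out. It called 2 with the urothelial libraries left out, Col5a3 and Col15a1, and 11 without mock replicate 5 of week 6, a library with 6916 TPM of summed collagen. It called 18 with week 2 left out, 17 without mitochondrial genes or with median-ratio rescaling, and 19 with library weights, where 2039, 2897, 2955 and 3106 genes were called in all. In this comparison over all weeks 5 of 10 stromal, 2 of 5 mesothelial, 1 of 6 adipocyte and 1 of 6 endothelial markers were called lower. Of 6 mural markers 1 was called lower and 1 higher. Of 5 urothelial markers 0 were called and 4 had an unadjusted p under 0.05, against 3443 of all 14577 genes. The part of these markers in the counts was not tested.

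Against NCAC over all weeks, CAC tissue had 10 of 32 genes lower and 2 higher, where 11.2% of all genes were called, 5.43% lower and 5.82% higher. The 2 that rose are at low levels, and 2 of 32 is near the share of all genes called higher, so the count is no result about collagen genes. Col11a2, a minor fibrillar chain, rose by 0.50 (SE 0.14, adjusted p = 0.0187), and its week 8 means were 3.47 ± 1.12 TPM in CAC (n = 7) and 1.47 ± 0.980 TPM in NCAC tissue (n = 5). Col20a1, a FACIT chain, rose by 0.40 (SE 0.11, adjusted p = 0.0156), with week 8 means of 5.44 ± 1.78 TPM in CAC and 3.67 ± 1.05 TPM in NCAC tissue. Against mock tissue over all weeks neither passed (log2 changes 0.27 and 0.28, adjusted p = 0.196 and 0.114). Against NCAC with the urothelial libraries left out neither passed either (log2 changes 0.44 and 0.36, limma adjusted p = 0.280 and 0.117). Each gene lost its call in 3 of 11 alternative fits. The count of 12 fell to 2 with week 6 or week 8 left out (334 and 282 genes in all) and to 1 with the urothelial libraries left out (288 in all). In the same fit 4 of 10 stromal, 3 of 5 mesothelial and 2 of 6 adipocyte markers (Plin1 and Adipoq) were called lower, and 4 of 5 urothelial, 2 of 3 Schwann, 1 of 6 mural and 1 of 2 tested melanocyte markers higher, and their part in the collagen counts was not tested.

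NCAC tissue gave 0 collagen calls against mock tissue at each of the 4 weeks and over all weeks, and 0% of all genes were called in each of these fits. In these 5 comparisons 0 of 32 collagen genes had an unadjusted p under 0.05. Over all genes, 234, 115, 205 and 181 had one at weeks 2, 4, 6 and 8, and 442 over all weeks. Library weights called 1 at week 2, among 230 genes in all, and 0 at week 6, among 1078. With the urothelial libraries left out the counts stayed 0. At week 8 the log2 change of Col3a1 was -0.78 (SE 0.65) and that of Col4a1 was -0.32 (SE 0.34), each with a limma adjusted p of 0.9995. Of the 32 genes, 28 had a negative log2 change at week 8 (median -0.41) and 30 over all weeks (median -0.20). The week 8 class medians were -0.72 for fibrillar, -0.39 for type IV, -1.18 for type VI, -0.64 for FACIT and -0.16 for other genes. The same mock libraries stand in the CAC and NCAC comparisons.

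Ratios between chains that share a molecule ranged to different degrees. Col4a1 over Col4a2, the pair that starts head to head, ranged over 1.12 to 1.63 with a median of 1.39 in the 62 libraries, while each gene's own level ranged 5.19-fold and 4.89-fold. Col1a1 over Col1a2 ranged over 0.573 to 1.56 (median 1.13), while the genes ranged 148-fold and 72.1-fold. Col6a1 over Col6a2 ranged over 1.87 to 3.79 (median 2.29), while the genes ranged 58.0-fold and 92.1-fold. Col6a1 over Col6a3 was looser, at 1.75 to 7.24 (median 4.03). Within week 6 Col6a1 over Col6a2 was 2.57 to 3.27 in CAC tissue, 1.91 to 2.30 in NCAC tissue and 1.87 to 2.34 in mock tissue, so the CAC libraries lay above both other arms. At week 8 it was 2.04 to 3.51 in CAC, 2.07 to 2.98 in NCAC and 1.93 to 2.51 in mock tissue, and the arms overlapped. Col1a1 over Col1a2 was 0.716 to 0.937 in CAC tissue, 0.937 to 1.52 in NCAC tissue and 0.879 to 1.39 in mock tissue at week 6. These ratios are given as a description, with no test.

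Several genes that fold, modify and crosslink collagen were lower in CAC tissue at week 8 as well. Of 19 genes for folding and modification in the endoplasmic reticulum, 4 were called lower and 0 higher in CAC against mock tissue (median log2 change -0.64), against 1.99% of all genes called lower and 1.08% higher. P4ha3, a subunit of prolyl 4-hydroxylase, averaged 0.216 ± 0.185 TPM in CAC tissue (n = 7) against 14.8 ± 19.8 TPM in mock tissue (n = 5) and fell by 2.72 (SE 0.64, adjusted p = 0.0391). Plod2, a lysyl hydroxylase for telopeptides, fell by 2.07 (SE 0.47, adjusted p = 0.0359). The other 2, named after their values were seen, were Serpinh1, the collagen chaperone HSP47 (-1.76, adjusted p = 0.0280), and the transcription factor Creb3l1 (-1.96, adjusted p = 0.0209). Of 12 genes for propeptide processing and crosslinking 2 were called lower and 0 higher (median -0.97), both lysyl oxidase relatives. Loxl2 averaged 6.52 ± 2.69 TPM in CAC tissue against 53.8 ± 45.7 TPM in mock tissue and fell by 2.64 (SE 0.37, adjusted p = 0.00604), and Loxl1 fell by 1.76 (SE 0.32, adjusted p = 0.0165). Of 9 receptors, among them integrin and DDR genes, and of 8 tested of 10 degradation genes, MMPs, Ctsk and TIMPs, 0 were called at week 8, with 4 and 1 at an unadjusted p under 0.05. Over all 14577 genes, 2999 had such a p at week 8. Over all weeks the degradation list held 1 called gene, Mmp3, a secreted matrix metalloproteinase, which rose by 0.88 (SE 0.29, adjusted p = 0.0458). The counts over all weeks were 6 lower for folding, 3 lower for crosslinking and 1 lower for receptors (Itga1, -0.48), where 5.79% of all genes were called lower and 4.21% higher, so that single calls in lists of 8 or 9 genes are no result about those lists.

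Some other stromal genes were lower as well, and no adipocyte marker was called at week 8. Of 10 stromal markers with no collagen gene among them, 4 were called lower and 0 higher in CAC against mock tissue at week 8 (median log2 change -0.97), namely Fbn1, Dpt, Lum and Mfap5. The summed level of all 10 was 1079 to 2801 TPM in CAC (median 1883) and 1384 to 6228 TPM in mock tissue (median 2854), and these ranges overlapped. Of 6 adipocyte, 6 endothelial, 6 mural and 6 macrophage markers 0 were called at week 8, with 1, 1, 5 and 0 at an unadjusted p under 0.05, and 1 of 5 mesothelial markers, Msln, was lower. An unadjusted p under 0.05 was found for 2999 of all 14577 genes in this comparison. The mural sum ranged over 481 to 2180 TPM in CAC libraries and 769.7 to 12570.0 TPM in mock tissue. The 5 urothelial markers had a median log2 change of 1.58 with 0 called and 0 at an unadjusted p under 0.05, and summed to 7.68 to 182 TPM in CAC libraries and 9.66 to 109 TPM in mock tissue. The part of the stromal, mural and urothelial markers in the collagen result was not tested.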

How the data were processed

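Per the labels, RNA was extracted with Trizol and sequenced from TruSeq stranded mRNA libraries on a NovaSeq instrument. The build named is mm10, per the submitters' processing notes. How reads were aligned and counted is not given in the sources used here, and depth is unknown, so no counting interval is given. The authors deposited 1 table of TPM values for 62 libraries, in which each library sums to 1000000.

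Values were transformed to log2(TPM + 1), and 14577 genes averaging 0.5 TPM or more over the 62 libraries entered the fits (a few fewer per comparison where a gene did not vary). The tool was limma 3.58.1 under R 4.3.3 (lmFit, then eBayes with trend and robust prior), run on the groups compared, or on all weeks with week as a term. Tests were two-sided, with Benjamini-Hochberg adjustment over all genes and calls at an adjusted p under 0.05. Words such as rose and fell mark called genes. The fits were also run on simulated data with independent noise for each gene. Genes that move together between libraries were not simulated, so that run is no check of the collagen counts. Errors beside TPM are SDs.

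The collagen genes, the pathway and marker lists and the naming rule were chosen with earlier results of these data known. By that rule genes over 10 TPM are described by name, genes from 0.5 to 10 TPM are named where called, and values of single libraries are given for the most abundant chain of each class and the one with the smallest adjusted p at week 8. Each pathway list names the 2 called genes with the largest change in each direction, and genes beyond these are said to be named after their values were seen. Coding and promoter sequences came from GENCODE M21 and from RefSeq, where 35 of the 44 genes matched a promoter entry. Glycine repeats were read from 1 complete coding sequence per gene, for all 44 genes. Alternatives were a pseudocount of 0.1, no filter on low values, mitochondrial genes left out, median-ratio rescaling, library weights, 1 fit of all libraries, a replicate block, and leaving out single libraries, single weeks or libraries with over 100 TPM of urothelial transcripts. The ratio test and the fit without mock replicate 5 of week 6 were added after the data were seen.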

Additional observations from a re-analysis of the deposited data

Results flagged for a closer look

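Each of 8 collagen genes was looked at in the 12 groups for 1 library far from the others by Dixon's test, 96 groups in all, and 2 were marked. Chance marks about 1 in 20 groups, so 2 of 96 is no more than chance gives. Col15a1 was far lower in NCAC replicate 1 at week 2, at 61.8 TPM, than in the other NCAC libraries of that week at 153 to 203 TPM. Col6a3 was far higher in mock replicate 1 at week 2, at 279.7 TPM, than in the other 4 mock libraries at 33.8 to 60.8 TPM. That mock library also had the highest mural marker sum of its group, 8641 TPM.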

How the results depend on the processing

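TPM carries no depth, so how much of a spread comes from counting is unknown. Beside the 12 collagen calls for CAC against mock at week 8, a pseudocount of 0.1 gave 12, no filter and 1 fit of all libraries 11 each, median-ratio rescaling 15, and mitochondrial genes left out and library weights 17 each, always lower. In the same order, 533, 223, 986, 1451, 2072 and 1462 genes were called in all. The 12 became 0 with urothelial libraries left out (2 genes in all) and 7 to 14 without 1 library (131 to 647 genes in all). The 13 calls over all weeks became 2 without urothelial libraries, 18, 8, 6 and 0 without week 2, 4, 6 or 8, 17 without mitochondrial genes or with median-ratio rescaling, 19 with library weights, and 11 without mock replicate 5 of week 6. In all, 273 genes were called without urothelial libraries, and 2039, 1083, 307 and 171 without week 2, 4, 6 or 8. Without mitochondrial genes 2897 were called, with median-ratio rescaling 2955, with library weights 3106 and without that mock library 1317. For CAC against NCAC at week 6 the 4 calls became 0 without urothelial libraries, 1 in 1 fit, 2 without a filter, 7 without mitochondrial genes, 12 with median-ratio rescaling, 13 with library weights and 0 to 10 without 1 library. In the same order, 62, 555, 550, 668, 996, 3307 and 210 to 1682 genes were called in all. At week 8 the 0 became 1 without mitochondrial genes, 4 in 1 fit, 23 with library weights and 0 to 16 without 1 library. The first 3 of these fits called 206, 611 and 3061 genes in all, and the fit with 16 called 1253. Over all weeks the 12 became 1 without urothelial libraries, 2 without week 6 or 8 and 19 with library weights. In the same order, 288, 334, 282 and 3525 genes were called in all. Library weights also called 2 (CAC against mock) and 1 (NCAC against mock) at week 2, 16 for CAC against mock at week 6, and 9 for the CAC effect at week 8 minus week 2. These fits called 670, 230, 2758 and 777 genes in all. The causes of these moves were not tested. Uncalled values changed sign for Col14a1 at week 2 without urothelial libraries (-0.093) and for Col6a4 against NCAC over all weeks without week 6 (0.015) or 8 (0.16). In leave-one-out fits CAC against mock, Col3a1 at week 2 ranged over -0.49 to 0.25, Col6a1 -0.53 to 0.40, Col14a1 -0.14 to 0.71, Col4a1 at week 6 -0.065 to 0.42, and the Col3a1 to Col4a1 ratio at week 2 -0.015 to 0.51. Whether replicate numbers pair the samples is not known, and the main fits use no pairing. In a comparison within a week, 0 to 4 of the 5 same-numbered pairs correlated above 0.1. With a replicate block, which keeps only numbers found in both arms, the counts were 0 for CAC against mock at week 8 and 7 over all weeks. For CAC against NCAC at week 6 the count was 9. In these fits 30, 739 and 815 genes were called in all. Of the 10 libraries of a comparison within a week, 0 to 6 correlated best with their own number. The number was 6 for CAC against NCAC at week 8 and 4 at week 6. For CAC against mock it was 5 at week 2 and 1 at week 8.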
